A study of Mus musculus with 12 samples.

Results

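Mouse primordial germ cell-like cells (PGCLCs) that lack DNA methyltransferases were compared after long and short priming. The comparison took the 3 libraries titled E14 TKO 96H and the 3 titled E14 TKO 40H, 6 of the 12 libraries of the series, and asked which genes differed between them. All cultures started from E14TG2a, a mouse embryonic stem cell line, grown in 2i medium with LIF and vitamin C. TKO is the genotype on the labels of these 6 libraries and is known from the study to stand for knockouts of Dnmt1, Dnmt3a and Dnmt3b. The labels name no clone and do not say how the alleles were made. Cells were first turned into epiblast-like cells (EpiLCs), for 40 h in one group (TKO_40h) and 96 h in the other (TKO_96h). Both groups were then held for 4 days as aggregates with BMP4, BMP8, stem cell factor, EGF and LIF, and RNA was taken at the end of those 4 days. The labels mention dissociation for flow cytometry but not whether RNA came from sorted cells or whole aggregates. No WT library was primed for 96 h, so a response to priming time in TKO cells cannot be set against one in WT cells. The 3 libraries of TKO_48h and the 3 of WT_40h, TKO cells primed for 48 h and unmodified E14TG2a cells primed for 40 h, enter the same fit, and TKO_96h was also tested against TKO_48h.

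Germ cells of the mouse arise from the epiblast, when BMP signals act on cells that have left naive pluripotency but have not yet committed to a body lineage. In culture this state is passed through during EpiLC priming, and the ability to answer BMP4 with Prdm1, Prdm14 and Tfap2c is known to be transient. DNA methylation is laid down by the Dnmt enzymes over the same period, and it normally keeps imprinted genes and a set of germline genes silent on the methylated allele or promoter.

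Libraries held 7535501 to 8798136 estimated counts in TKO_40h and 7090449 to 7828031 in TKO_96h, in a series range of 6570180 to 9114128. The correlation between replicates, on log values, was 0.956 to 0.957 in TKO_40h and 0.95 to 0.956 in TKO_96h. Principal component 1 held 21.93% of the variance, and along it TKO_96h lay at 56.72 to 70.07 and every other library between -43.65 and -7.93. TKO_48h replicate 1 stood apart on component 2, at -85.63 against -18.07 and -0.13 in its group, and without it 2259 genes instead of 1965 passed the test described below. TKO_96h replicate 1 stood apart in 2 measures. Lars2 and Ccnb1ip1 took 3.06% of its counts, against 1.64% and 1.48% in the other TKO_96h libraries. Mitochondrial mRNAs took 1.87% of its counts, against 1.59% and 1.43% in those libraries and 1.18% to 1.35% in TKO_40h. The share of annotated ribosomal RNA differed between the groups compared, at 0.907% to 1.11% of counts in TKO_40h and 1.24% to 1.63% in TKO_96h, with TKO_48h higher again at 1.78% to 2.15%, and its part in the results was not tested. Titles call the replicates biological and give no more, so p-values measure the spread between these libraries.

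The targeted genes were still counted at the whole-gene level. Levels are given as CPM, a gene's share of its library's counts on a common scale with no allowance for gene length. Dnmt1, the maintenance enzyme, was at 130, 116 and 115 CPM in TKO_40h and 148, 132 and 152 CPM in TKO_96h, below the 426 to 450 CPM of WT_40h. Dnmt3a was at 66.1, 67.0 and 59.7 CPM in TKO_40h and 57.4, 73.1 and 60.8 CPM in TKO_96h, and Dnmt3b at 39.0, 49.2 and 55.4 against 27.6, 33.9 and 35.4 CPM. WT_40h held 358 to 436 CPM of Dnmt3a and 158 to 215 CPM of Dnmt3b, so all TKO libraries named here lay below all WT libraries for the 3 genes. Which part of each gene is altered is not given in the sources used here, so these counts do not show whether a transcript is functional.

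Priming for 96 h instead of 40 h was followed by lower RNA of glucose transport, glycolysis and other hypoxia-responsive genes, of primed epiblast genes, of many germline genes and of epithelial keratins and junction genes. Naive pluripotency genes such as Jam2, Spp1 and Tbx3 were higher. Of 16178 genes tested, 1965 (12.1%) passed an adjusted p below 0.05, and these are said to have changed; 800 (4.94%) rose and 1165 (7.2%) fell. A change of at least 2-fold was found for 662 of them, 155 higher and 507 lower. The median log2 fold change over all genes tested was 0.0. Replicates of TKO_40h and TKO_96h did not overlap for 1940 of the 1965, against 32.2% of all genes tested. Against TKO_48h, which shares the TKO_96h libraries, 19.5% of genes changed, 8.82% higher and 10.7% lower. Of the genes that rose over TKO_40h, 500 also rose over TKO_48h, and of those that fell, 810 also fell below TKO_48h.

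Leaving out TKO_40h replicate 3 cut the count to 1210 genes, 419 higher and 791 lower. Without TKO_40h replicate 1 or 2, or TKO_96h replicate 1, 528, 510 or 511 genes rose. With an offset for the effective length of each gene in each library, which allows for transcripts of different length, 828 genes changed, 284 higher and 544 lower. Over 15 alternatives, 615 genes, 198 higher and 417 lower, changed in every one.

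**Figure D1:**
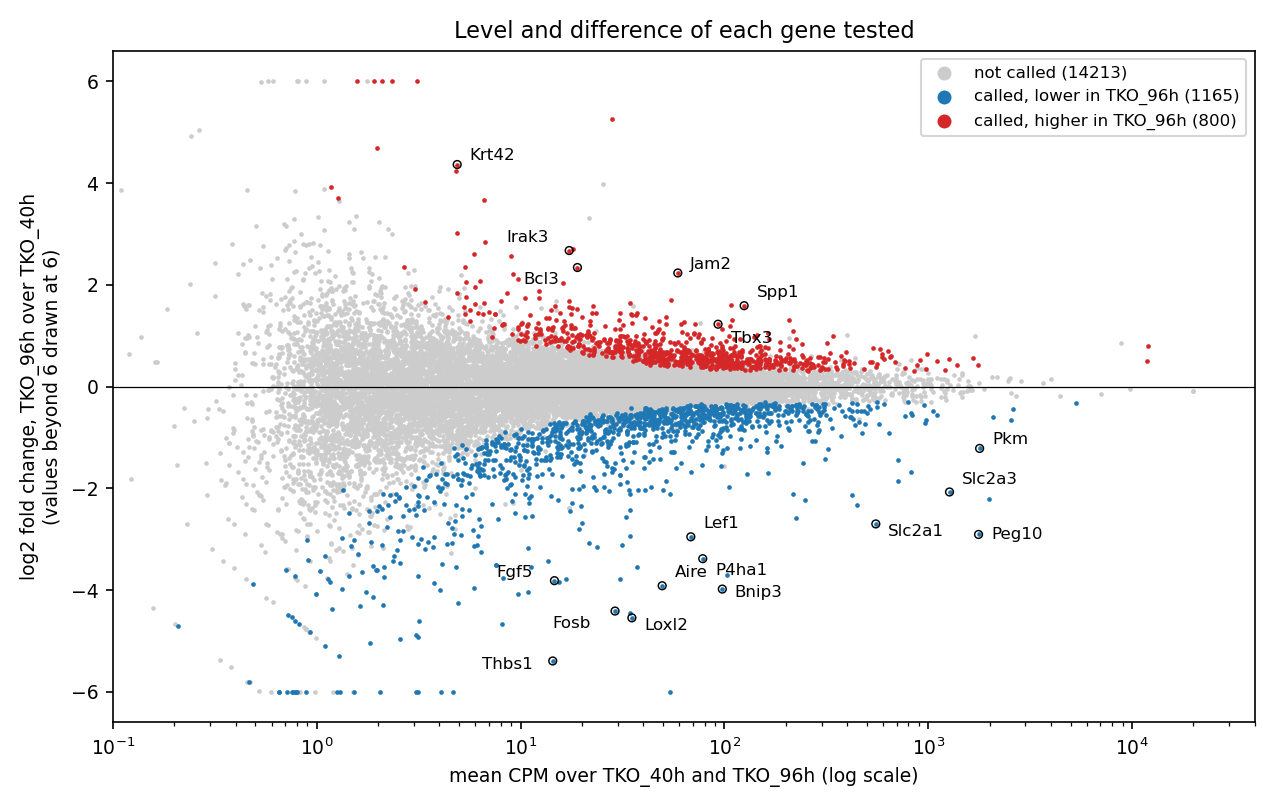
Each point is 1 of the 16178 genes tested, with the mean CPM over TKO_40h and TKO_96h on a log axis and the log2 fold change of TKO_96h over TKO_40h on the other. The decreases reach further down, with 507 genes at least 2-fold lower and 155 at least 2-fold higher, and circled genes are named.

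**Figure D2:**
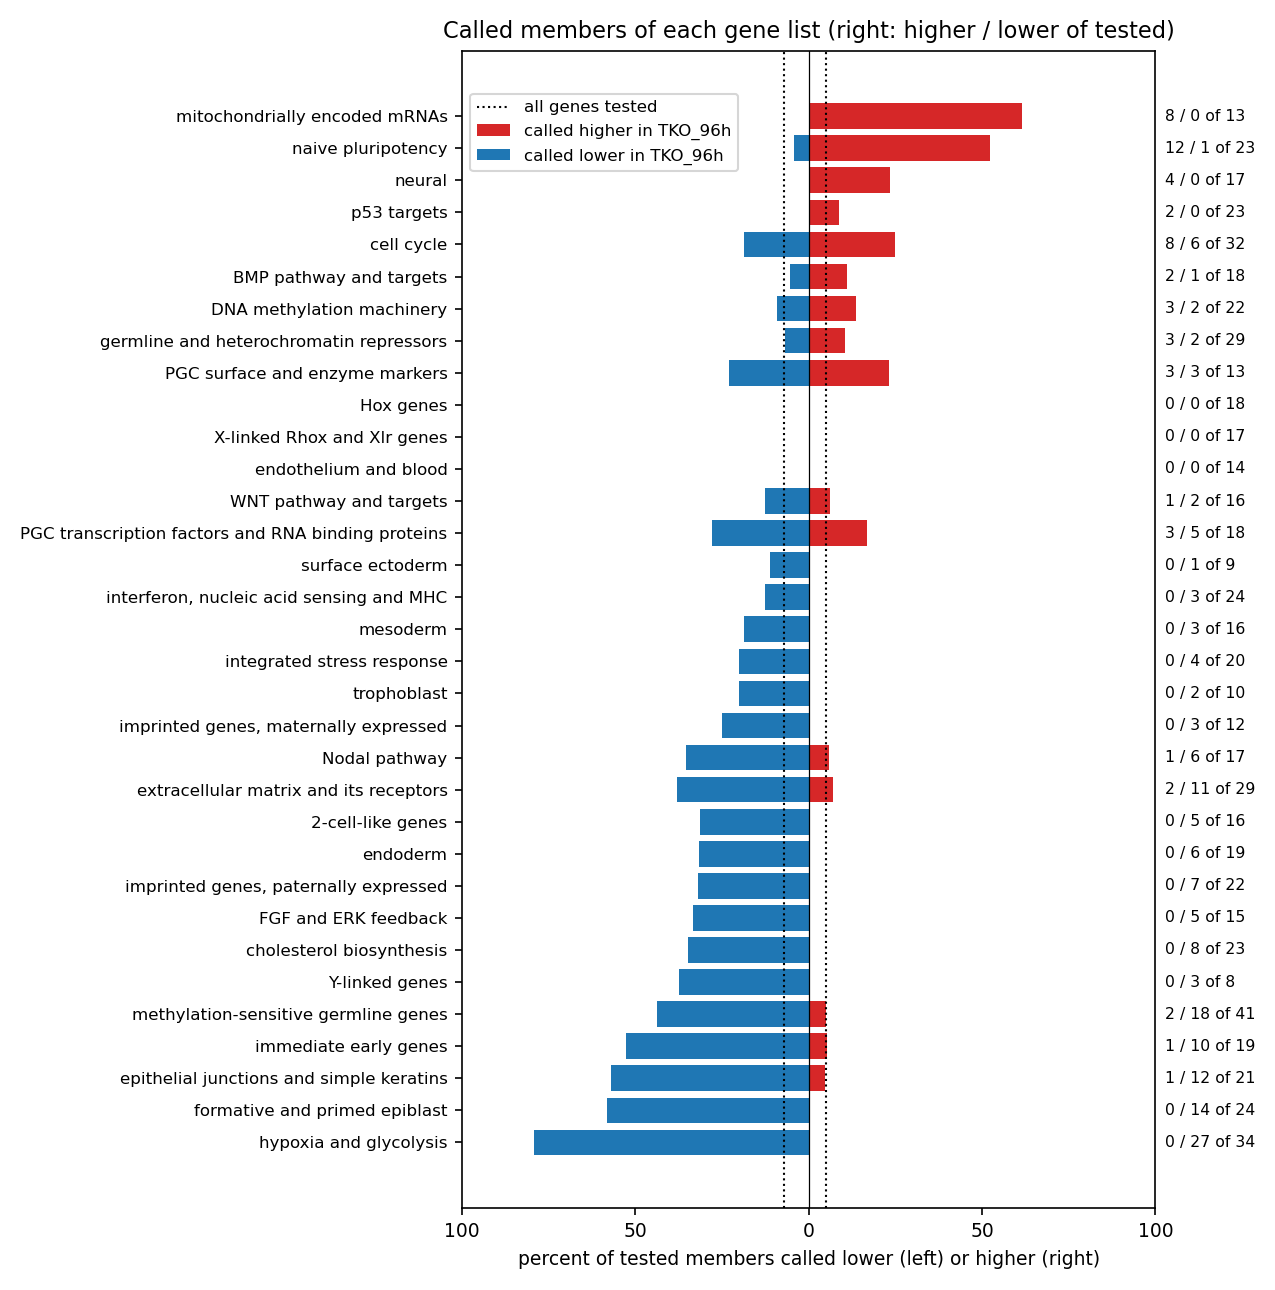
Bars show, for each of the 33 gene lists, the percent of tested members that rose (right) or fell (left) in TKO_96h against TKO_40h, and dotted lines show the same for all genes tested, 4.94% and 7.2%. Hypoxia and glycolysis stands at the bottom with 27 of 34 members lower, and mitochondrial mRNAs and naive pluripotency at the top with 8 of 13 and 12 of 23 higher.

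Genes of glucose uptake, glycolysis and the response to low oxygen fell in TKO_96h. Of 34 tested members of the list, 27 fell and none rose, with a median log2 fold change of -1.79, where 7.2% of all genes fell around a median of 0.0. The summed CPM of the list were 12710 to 13650 in TKO_40h and 4687 to 4782 in TKO_96h. They were 15990 to 19730 in TKO_48h and 14590 to 14910 in WT_40h, so TKO_96h alone lay below the other 3 groups, with no overlap. The count of 27 was the same without TKO_96h replicate 1, where 1 member rose, and was 25 with the length offset. Against TKO_48h, 32 of the 34 fell and 1 rose.

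The start of the promoters of 4 of these genes shows the letters ACGTG, known as the core of the element that hypoxia-inducible factors bind. The windows shown are those of the list's decreases with the smallest p. Genes without a window, or with annotated exon over more than a small part of it, were passed over. Each window shown holds the letters. They are the 250 bases before the RefSeq start (build GRCm38.p6), 5′ to 3′ on the gene's strand, with ACGTG or its reverse complement CACGT in capitals.
P4ha1, chr10:59323046-59323295, strand +: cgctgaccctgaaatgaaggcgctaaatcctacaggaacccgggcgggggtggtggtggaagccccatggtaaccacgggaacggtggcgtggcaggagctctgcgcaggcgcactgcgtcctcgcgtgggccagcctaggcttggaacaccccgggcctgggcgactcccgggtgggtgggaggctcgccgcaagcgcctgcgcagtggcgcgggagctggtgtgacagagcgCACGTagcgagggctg
Bnip3, chr7:138909507-138909756, strand minus: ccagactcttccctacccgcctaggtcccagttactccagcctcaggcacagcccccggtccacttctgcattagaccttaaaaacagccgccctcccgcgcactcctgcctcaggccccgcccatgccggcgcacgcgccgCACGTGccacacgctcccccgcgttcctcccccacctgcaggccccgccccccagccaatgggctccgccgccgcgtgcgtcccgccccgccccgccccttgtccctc
Slc16a3, chr11:120948817-120949066, strand +: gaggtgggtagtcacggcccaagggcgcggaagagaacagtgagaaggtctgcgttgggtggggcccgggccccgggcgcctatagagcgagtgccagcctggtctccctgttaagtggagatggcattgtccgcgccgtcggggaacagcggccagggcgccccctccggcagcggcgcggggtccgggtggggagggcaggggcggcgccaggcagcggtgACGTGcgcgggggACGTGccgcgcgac
Egln3, chr12:54203875-54204124, strand minus: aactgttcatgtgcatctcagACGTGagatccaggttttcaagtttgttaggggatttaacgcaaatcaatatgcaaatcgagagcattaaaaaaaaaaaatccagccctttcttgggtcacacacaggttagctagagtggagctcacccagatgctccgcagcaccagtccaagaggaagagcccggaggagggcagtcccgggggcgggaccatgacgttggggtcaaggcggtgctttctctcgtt
The letters ACGTG, searched on both strands over 250 bases before to 50 after the start, were in 13 of the 23 windows found for the 27 genes that fell, or 56.5%. They were in 4 of 6 windows (66.7%) of list members that did not change, in 24.5% of windows of all genes tested and in 19.7% of all 27025 genes in the table. All genes that rose had the letters in 31.5% of windows and all that fell in 26.0%. Germline genes, described below, had them in 71.4% of windows where they fell and 68.4% where they did not change. The letters were thus not particular to the hypoxia list or to decreases. ACGTG overlaps CACGTG, so both counts take in some of the same sites. Bnip3 holds that longer form.

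The RNA of glucose transporters showed some of the clearest differences. Slc2a1, the broadly used glucose transporter GLUT1, was at 908, 931 and 1038 CPM in TKO_40h and 156, 151 and 136 CPM in TKO_96h, or -2.70 ± 0.12 (SE) as a log2 fold change with an adjusted p of 4.8e-12. The groups lay far apart, and TKO_96h was also below the 923 to 1262 CPM of TKO_48h and the 1088 to 1098 CPM of WT_40h. Slc2a3, the high-affinity transporter GLUT3, fell from 2072, 2008 and 2085 to 444, 498 and 525 CPM (log2 fold change -2.07 ± 0.10). Slc16a3, which exports lactate, fell 13.1-fold, from 194, 177 and 201 to 10.4, 16.8 and 16.4 CPM.

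Along the glycolytic chain the fall was unequal from step to step. Gpi1, which isomerises glucose phosphate, had a log2 fold change of -0.86 ± 0.10, and Pfkl, a liver-type phosphofructokinase, fell 5.95-fold from 377, 373 and 398 to 72.2, 62.6 and 58.3 CPM. Aldoa, the main aldolase, was at 1119, 1072 and 1141 CPM in TKO_40h and 307, 291 and 325 CPM in TKO_96h. Tpi1, triose phosphate isomerase, had a log2 fold change of -2.93 ± 0.23, Pgk1, phosphoglycerate kinase, -2.32 ± 0.12, and Pgam1, phosphoglycerate mutase, -0.61 ± 0.11. Pkm, pyruvate kinase, fell 2.32-fold from 2491, 2456 and 2549 to 1141, 1065 and 1023 CPM, and Ldha, which turns pyruvate into lactate, fell 4.36-fold. Eno1, enolase, had a value of -1.44 ± 0.12, but it shares reads with its near copy Eno1b (-1.67 ± 0.13), so the split between them is uncertain. The hexokinases Hk1 (-0.11, adjusted p = 0.73) and Hk2 (-0.21, adjusted p = 0.36) did not pass the test. Neither did Gapdh, which was named after its values were seen, at 2840, 2809 and 2907 against 2707, 2468 and 2363 CPM (log2 fold change -0.18 ± 0.10, adjusted p = 0.28). Pgm1 (-2.45 ± 0.19) and Pfkfb3 (-1.59 ± 0.17), which feed and tune glycolysis, fell as well and were also chosen after their values were seen.

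Other genes known to answer low oxygen moved with them. P4ha1, a collagen prolyl hydroxylase, had the smallest p of the list: 147, 136 and 146 CPM in TKO_40h and 14, 13.9 and 13.2 CPM in TKO_96h, or 10.4-fold lower (adjusted p = 2.4e-13). Bnip3, a mitophagy receptor, fell from 164, 172 and 215 to 11.3, 14.8 and 8.84 CPM, a log2 fold change of -3.98 ± 0.16. Egln3, a prolyl hydroxylase that acts on hypoxia-inducible factors, fell 21.9-fold from 61.0, 62.6 and 73.9 to 2.87, 3.5 and 2.64 CPM. Ndrg1 (-3.15), Vegfa, the vascular growth factor (-2.43), Adm, adrenomedullin (-2.42), Ddit4, an inhibitor of mTORC1 (-2.11), and Egln1 (-1.07) fell too. The RNA of 2 of the factors themselves did not fall, and their protein was not measured. Hif1a was at 151, 153 and 143 CPM in TKO_40h and 166, 184 and 193 CPM in TKO_96h (0.28 ± 0.10, adjusted p = 0.071). Epas1 had a log2 fold change of 0.03 ± 0.11 against TKO_40h. Over TKO_48h, Hif1a rose by 0.62 (adjusted p = 0.00021). Car9, often used as a marker of low oxygen, was near its lower limit in both groups, at 0 to 1.51 and 0 to 0.70 CPM, while TKO_48h held 5.50 to 8.95 CPM and TKO_96h fell below it (-4.21, adjusted p = 0.003). Oxygen, aggregate size and medium were not recorded in the labels for each group, and their part in the result was not tested.

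**Figure D3:**
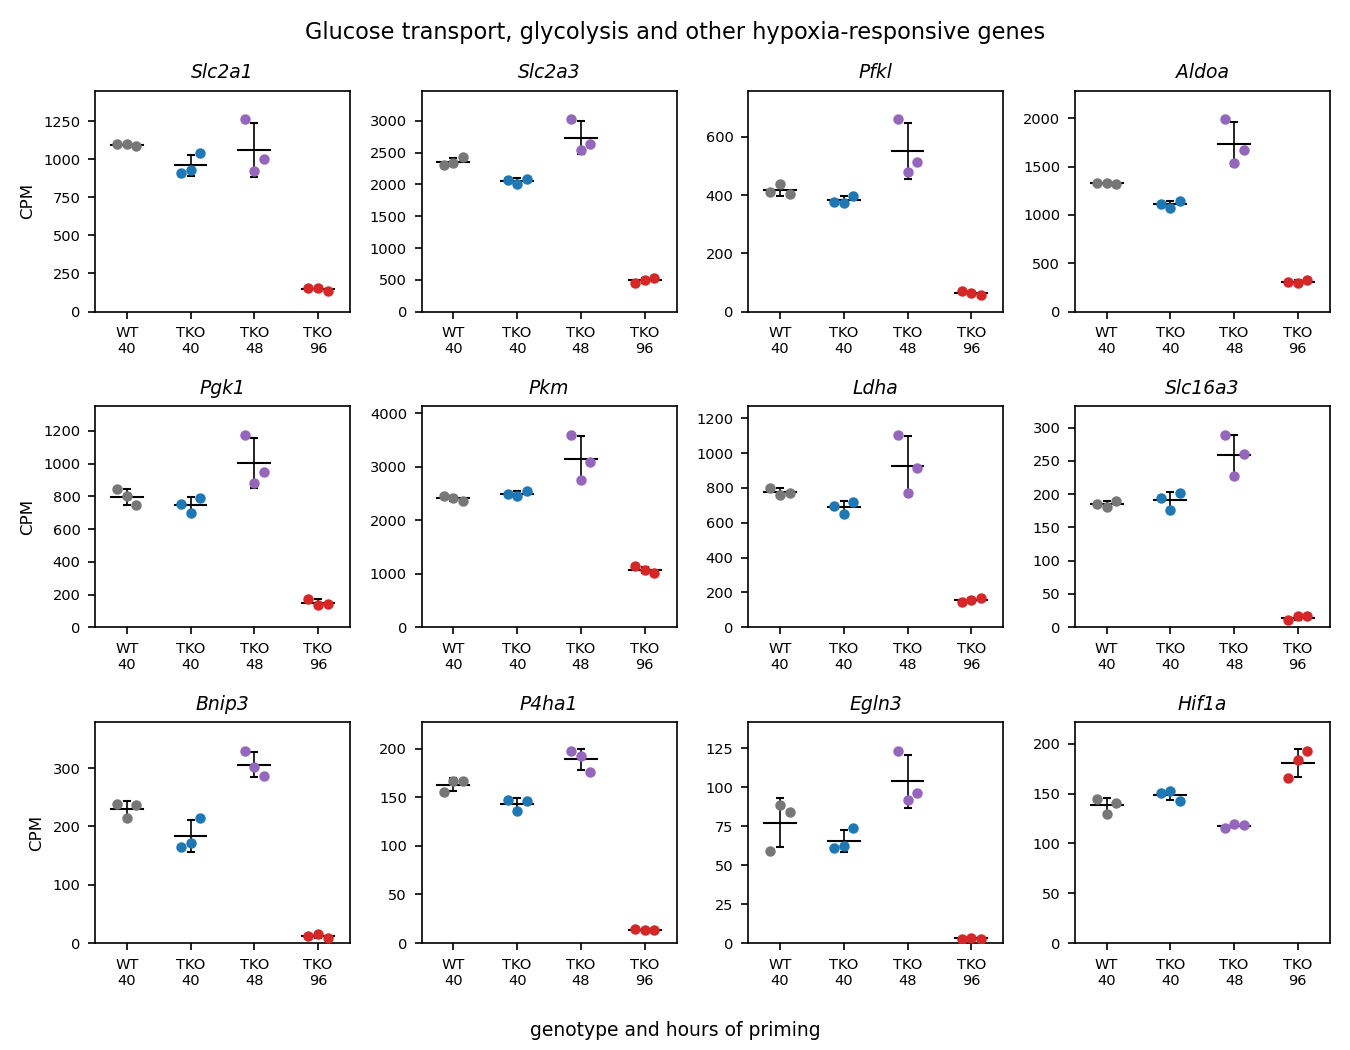
CPM of 12 genes in each of the 12 libraries (points), with the mean (bar) and SD over 3 replicates, by genotype and hours of priming, each axis starting at 0. For 11 of them TKO_96h lies below all other libraries, as for Slc2a1 at 136 to 156 CPM, while Hif1a does not fall.

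Among naive pluripotency genes, which mark the state before priming, 12 of 23 tested members rose and 1 fell, with a median log2 fold change of 0.44, where 4.94% of all genes rose. With the length offset 8 rose and 1 fell, and without TKO_96h replicate 1 it was 11 and 1. Jam2, a junction adhesion molecule of naive cells, rose 4.70-fold, from 22.1, 17.6 and 22.5 CPM in TKO_40h to between 88.0 and 104 CPM in TKO_96h (2.23 ± 0.16, adjusted p = 6.8e-09). TKO_96h lay above every other library of the series, which held at most 35.8 CPM. Spp1, the secreted osteopontin, rose from 66.2, 63.4 and 57.5 to 189, 138 and 236 CPM (1.59 ± 0.15). Tbx3, a T-box factor of the naive network, rose from 62.2, 53.7 and 51.5 to 117, 128 and 147 CPM (1.23 ± 0.14).

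Klf4 (0.82 ± 0.15) and Klf5 (0.51 ± 0.11), Krüppel-like factors of that network, rose, and Zfp42 (Rex1), a classical naive marker, went from 503, 529 and 520 to 808, 732 and 789 CPM. Klf2 was the member that fell, from 177, 184 and 158 to 90.1, 90.8 and 118 CPM (-0.79 ± 0.12). Esrrb, Tfcp2l1, Stat3 and Dppa4 rose by 0.46, 0.54, 0.71 and 0.44, and each of these calls ended with the length offset, with adjusted p up to 0.16, 0.55, 0.088 and 0.089 over the alternatives. Esrrb also lost its call without TKO_40h replicate 3 or TKO_96h replicate 3, and Dppa4 without replicate 1 of either group. Fgf4 (-0.20), Nr0b1 (0.33) and Gbx2 (-0.03) did not pass the test. Lifr, the receptor subunit for LIF, which is in the induction medium, was chosen after its values were seen: it rose by 1.02 ± 0.13, and not with the length offset (adjusted p = 0.11).

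Formative and primed epiblast genes fell in 14 of 24 tested cases and rose in none, with a median log2 fold change of -0.68. The shares over all genes tested were 7.2% lower and 4.94% higher. With the length offset 12 fell, and without TKO_96h replicate 1, 11 did. Fgf5, the growth factor that marks EpiLCs, fell 14.1-fold from 24.6, 26.6 and 30.9 to 2.42, 2.10 and 1.32 CPM (-3.81 ± 0.31, adjusted p = 6.6e-08). WT_40h held 8.79 to 12.6 CPM and TKO_48h 7.89 to 13.1 CPM, so that TKO_40h was the highest group and TKO_96h the lowest. Lef1, a transcriptional partner of beta-catenin, fell from 111, 114 and 138 to 9.96, 17.9 and 18.9 CPM (-2.95 ± 0.18). Otx2, a factor of the formative state known to hold back germ cell fate, fell 2.29-fold, from 91.8, 89.2 and 97.5 to 39.7, 43.1 and 38.8 CPM. Pou3f1 (-1.55), Sox3 (-1.43) and Fgf15 (-2.30) fell, while Zic2 (0.03), Foxd3 (-0.04) and Etv4 (0.41) did not pass the test. Krt18 and Cldn6, which the list also holds, fell by 3.16 and 3.12 on the log2 scale and are epithelial genes as much as primed ones.

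Germ cell genes themselves did not move together, where 7.2% of all genes tested fell and 4.94% rose. Of 18 PGC transcription factors and RNA binding proteins tested, 5 fell and 3 rose, with a median log2 fold change of 0.06, and with the length offset 3 fell and 1 rose. Dppa3 (Stella), which protects the germ cell and early embryo epigenome, was at 57.0, 51.6 and 46.1 CPM in TKO_40h and 21.0, 17.5 and 17.1 CPM in TKO_96h, or 2.78-fold lower (-1.48 ± 0.20, adjusted p = 6.5e-05). That level overlapped the libraries of WT_40h, the median of which was 18.8 CPM. Prdm1 (Blimp1), the repressor that starts the germ cell program, fell from 20.9, 19.5 and 22.3 to 11.2, 7.14 and 12.8 CPM (-1.01 ± 0.23, adjusted p = 0.0067) and was lower still relative to the 27.7 to 38.4 CPM of TKO_48h. Tfap2c, its partner, fell from 46.9, 54.8 and 44.2 to 26.9, 35.4 and 22.0 CPM (-0.79 ± 0.17), though not with the length offset (adjusted p = 0.079). Elf3 (-0.66) and Lin28a (-0.56) completed the decreases, the latter not with the length offset.

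Pou5f1 (Oct4) rose from 526, 545 and 504 to 915, 758 and 710 CPM (0.60 ± 0.12, adjusted p = 0.0017), Sall4 by 0.50 and Sox2 by 0.31. The call of Sall4 ended with the length offset (adjusted p = 0.17), and that of Sox2 ended there and without any 1 of the 6 libraries compared (adjusted p up to 0.13). Prdm14, the third factor of the germ cell program, was at 9.12, 12.4 and 15.7 against 16.6, 13.6 and 16.9 CPM and did not pass the test (0.34 ± 0.25). Nanos3, an RNA binding protein of committed germ cells, was at 0.82 to 1.80 and 0.53 to 3.08 CPM, too few counts to show a difference. Nanog (-0.15, adjusted p = 0.42), Dppa5a (-0.08), Utf1 (0.21) and Dnd1 (0.81) did not pass either.

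Of 13 tested PGC surface and enzyme markers, 3 rose and 3 fell, where 4.94% of all genes tested rose and 7.2% fell. Ifitm3 (Fragilis), an early germ cell membrane protein, rose 2.74-fold from 18, 15.4 and 15.7 to 46.4, 39.2 and 49.2 CPM, and its neighbour Ifitm2 rose 2.35-fold. Cd38, an ectoenzyme of germ cells, rose from 3.46, 1.33 and 4.89 to 11.2, 16.2 and 18.1 CPM. Epcam fell 2.46-fold from 132, 140 and 146 to 64.2, 50.5 and 54.9 CPM, Cdh1 (E-cadherin) by 0.48 and Pdpn (podoplanin) by 1.45 on the log2 scale. Kit, the receptor for stem cell factor, was at 65.9, 55.4 and 61.2 against 69.6, 88.5 and 84.3 CPM (0.41 ± 0.15, adjusted p = 0.08), but with the length offset it rose by 0.94 (adjusted p = 0.0044), which made 4 risen members. The marker alkaline phosphatase, Alpl, differed by -0.14 ± 0.11. The name PGCLC comes from the labels. Prdm1, Tfap2c, Dppa3 and Prdm14 were counted in all 6 libraries, while Nanos3 was near the detection limit. Dnd1 was low, at a mean of 2.81 CPM in TKO_40h and 4.94 CPM in TKO_96h. These counts do not show what share of the cells were germ cell-like. In RNA from cultures, fewer cells of a type and less RNA per cell cannot be told apart.

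**Figure D4:**
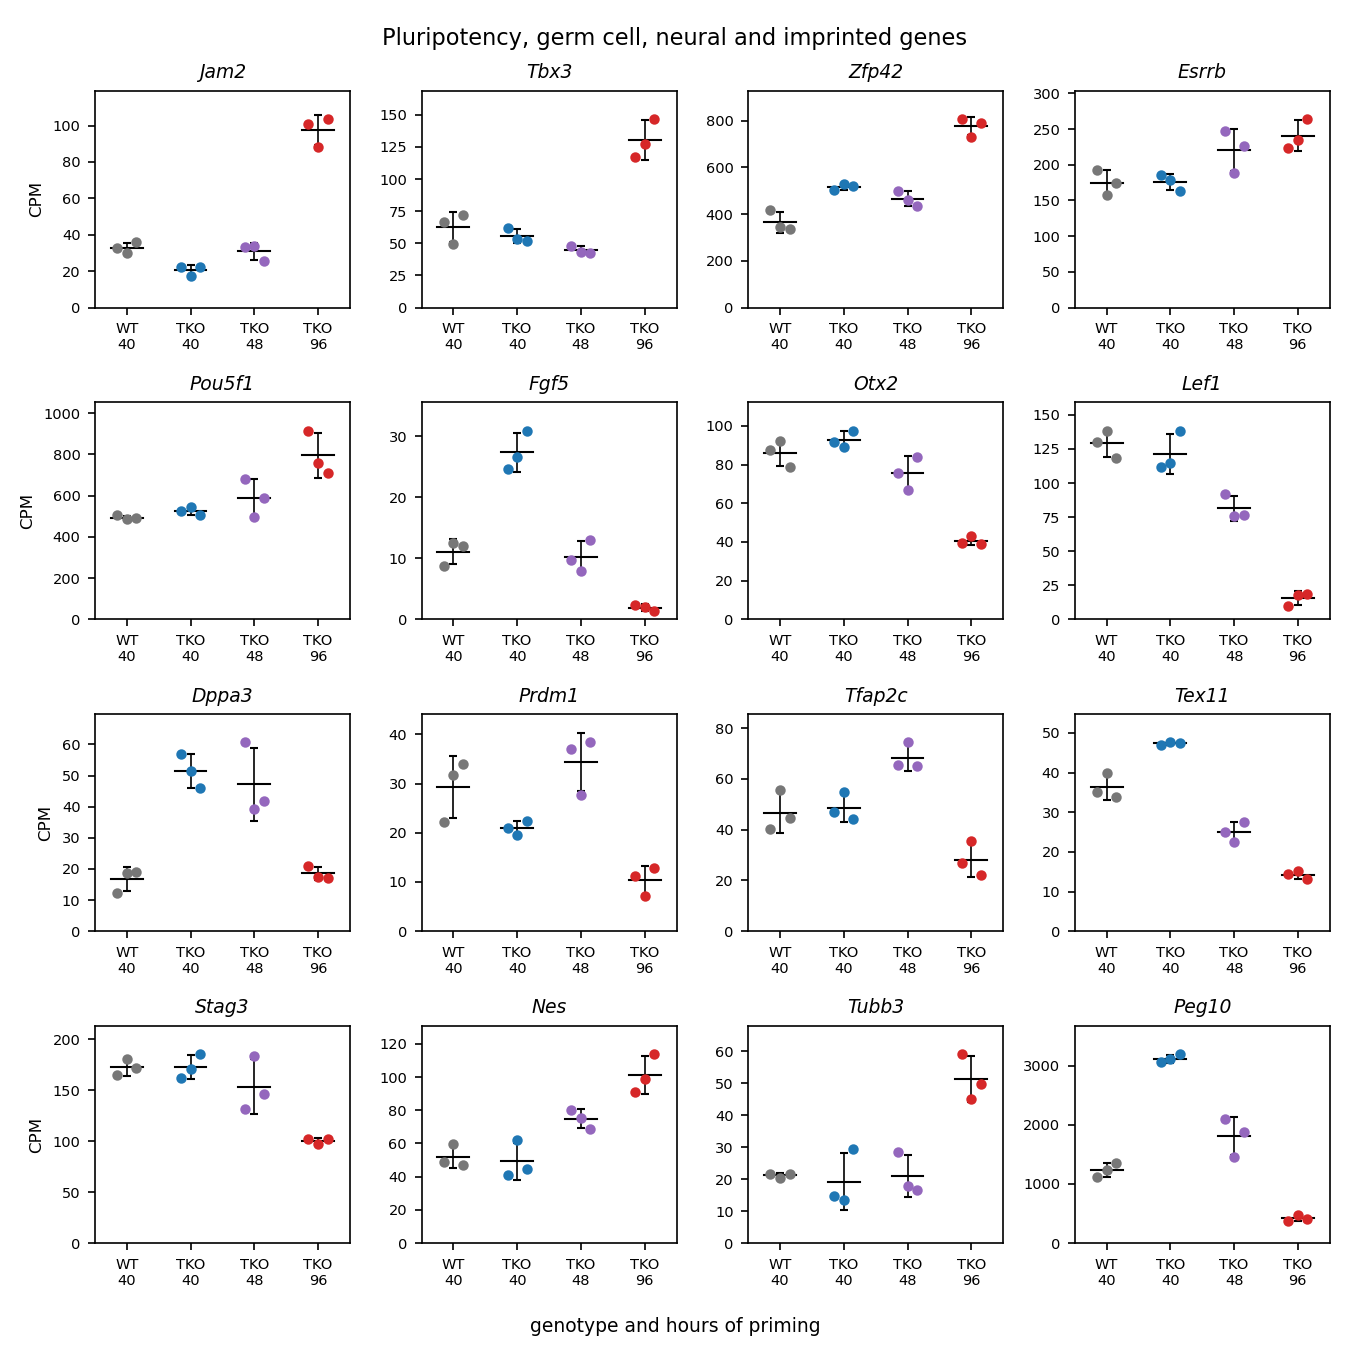
CPM of 16 pluripotency, germ cell, neural and imprinted genes in each library (points), with the mean (bar) and SD over 3 replicates, by genotype and hours of priming. Jam2, Tbx3, Zfp42 and Tubb3 are highest in TKO_96h, while Fgf5, Otx2, Lef1, Prdm1 and Peg10 are lowest there.

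Germline genes whose promoters are known to be silenced by methylation fell more often than they rose. Of 41 tested, 18 fell and 2 rose, with a median log2 fold change of -0.82. The shares over all genes tested were 7.2% lower and 4.94% higher. With the length offset the germline decreases went from 18 to 8, and without TKO_96h replicate 1 to 17. Decreases over all genes went from 1165 to 544 with that offset. The summed CPM were 1416 to 1514 in TKO_40h, 1165 to 1288 in TKO_48h, 1037 to 1146 in TKO_96h and 1316 to 1380 in WT_40h.

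Windows of 2 germline genes that fell are given because each holds CACGTG, the E-box of the kind that MAX and MGA, parts of a germline gene repressor, are known to bind. They are the 250 bases before the RefSeq start (GRCm38.p6), 5′ to 3′ on the gene's strand, with CACGTG in capitals. Both were picked for holding it.
Stag3, chr5:138280259-138280508, strand +: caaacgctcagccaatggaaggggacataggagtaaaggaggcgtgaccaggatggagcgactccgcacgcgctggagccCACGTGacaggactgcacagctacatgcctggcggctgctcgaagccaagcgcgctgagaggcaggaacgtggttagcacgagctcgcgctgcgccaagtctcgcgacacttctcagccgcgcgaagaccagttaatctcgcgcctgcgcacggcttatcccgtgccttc
Taf7l, chrX:134476491-134476740, strand minus: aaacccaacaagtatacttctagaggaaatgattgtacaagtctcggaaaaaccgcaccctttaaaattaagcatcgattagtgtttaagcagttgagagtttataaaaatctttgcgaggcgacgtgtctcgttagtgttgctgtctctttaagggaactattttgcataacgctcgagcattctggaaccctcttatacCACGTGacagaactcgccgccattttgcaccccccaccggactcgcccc
CACGTG, its own reverse complement, was in 8 of 14 windows (57.1%) of the germline genes that fell and 8 of 19 (42.1%) of those that did not change, against 9.65% of all genes tested and 7.24% of all genes in the table. The letters were thus found in germline promoters of both kinds.

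Several of the genes that fell serve meiotic recombination and chromosome structure. Stag3, a meiotic cohesin subunit, fell from 162, 171 and 185 to 102, 96.9 and 102 CPM (-0.78 ± 0.12), and Smc1b, its partner in cohesin, from 134, 109 and 124 to 62.2, 69.8 and 57.8 CPM (-0.95 ± 0.14). Tex11, an X-linked gene of meiotic crossover, fell 3.33-fold, from 47.0, 47.6 and 47.5 to 14.5, 15.1 and 13.1 CPM (adjusted p = 4.7e-07). Tex11 in TKO_48h was in between, at 22.5 to 27.6 CPM, and WT_40h held 33.9 to 39.8 CPM. Taf7l, a germ cell variant of a TFIID subunit, fell from 15.9, 15.4 and 14.4 to 1.96, 4.48 and 4.09 CPM. Meioc (-1.46) and Tex15 (-1.41), both needed for meiosis, fell as well. Sycp1 (-0.82), Syce1 (0.26) and Hsf2bp (0.10), which serve the same process, did not pass the test.

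Others belong to the piRNA pathway and germ granule. Ddx4 (Vasa), an RNA helicase of the germ line, fell from 41.3, 36.0 and 34.2 to 18.9, 18.5 and 11.7 CPM (-1.19 ± 0.19), and Tdrd12 fell by 2.00 and Rnf17 by 0.43 on the log2 scale. Piwil2 (-1.05), Mov10l1 (-0.99), Tdrkh (-1.45) and Mael (-0.77) fell, and these 4 calls ended with the length offset, with adjusted p up to 0.17, 0.073, 0.055 and 0.13 over the alternatives. Mael also lost its call when any 1 library but TKO_96h replicate 1 was left out of the 6. Dazl, the RNA binding protein often used as the marker of such genes, did not pass the test, at 114, 114 and 82.9 against 94.1, 78.0 and 85.3 CPM (-0.27 ± 0.14, adjusted p = 0.23). Neither did Tex19.1 (-0.33, adjusted p = 0.088) or Sohlh2 (-0.31). The 2 that rose were Rpl10l, a testis copy of a ribosomal protein gene, from 40.1, 36.8 and 34.1 to 96.8, 88.9 and 83.3 CPM, and D1Pas1, a testis RNA helicase, from 30.3, 29.1 and 20.2 to 51.8, 57.1 and 54.1 CPM. Both are single-exon genes close in sequence to a parent gene, so reads may be split between copies.

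**Figure D5:**
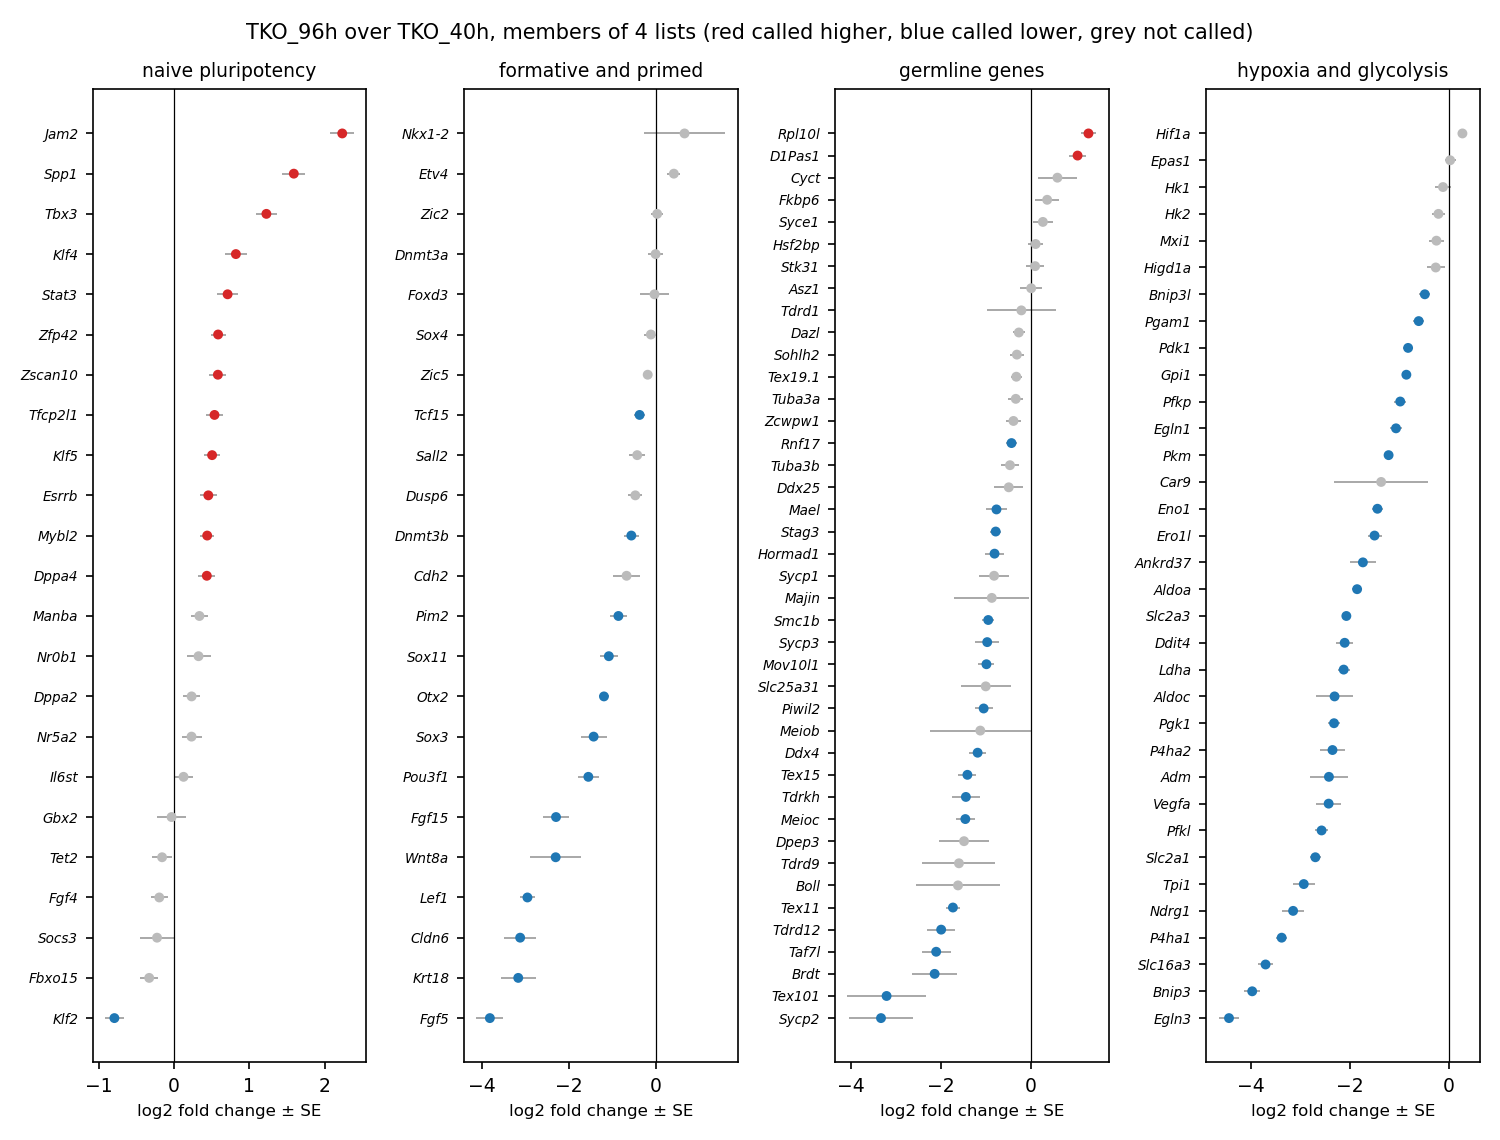
Points are the log2 fold changes of TKO_96h over TKO_40h, with SE bars, for the tested members of 4 lists, with 1 primed member that fell not drawn; red members rose, blue fell and grey did not pass the test. Of the 23 naive members 17 lie above 0 and 12 rose, and 14 primed, 18 germline and 27 hypoxia and glycolysis members fell.

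Signalling genes that act on epiblast cells were counted by pathway, with no test between pathways. Over all genes tested, 4.94% rose and 7.2% fell. In the Nodal pathway, which sustains the primed epiblast, 6 of 17 tested genes fell and 1 rose. Lefty1, a feedback inhibitor and target of Nodal, fell from 77.7, 69.7 and 82.4 to 33.5, 44.8 and 40.6 CPM (-0.95 ± 0.15), Tdgf1 (Cripto), its coreceptor, by 0.47 and Smad3, its signal transducer, by 1.01 on the log2 scale. Nodal itself was at 61.4, 52.6 and 65.3 against 57.4, 46.0 and 43.0 CPM and did not pass the test. Without TKO_96h replicate 1 the count was 4 lower and 0 higher, and with the length offset 3 and 0. Gdf3, a related ligand, was the one that rose (0.46), and its call was among those that ended.

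In the BMP pathway, which induces germ cells, 2 of 18 rose and 1 fell, where 4.94% of all genes tested rose and 7.2% fell. Id1, a direct target of the pathway, rose from 34.6, 44.5 and 23.0 to 66.9, 53.3 and 58.4 CPM (0.81 ± 0.18), while Id2 (0.02), Id3 (0.57) and Id4 (0.61) did not pass the test. Smad7, a feedback inhibitor, rose by 0.41 and Bmpr2, a receptor, fell by 0.44, and both calls ended with the length offset and when some libraries were left out (adjusted p up to 0.30 and 0.17). Of 16 WNT genes, 1 rose and 2 fell: Fzd7, a receptor, fell 2.24-fold, and Axin2, a general target, fell 2.18-fold, the second not with the length offset (adjusted p = 0.26). Tcf7l1, a repressor of WNT targets, rose by 0.57, and this call ended with the length offset (adjusted p = 0.067).

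Immediate early genes, which follow growth factor stimulation within a short time, fell more often than they rose. The shares over all genes tested were 7.2% lower and 4.94% higher. Of 15 FGF and ERK feedback genes, 5 fell and none rose, and of 19 immediate early genes, 10 fell and 1, Myc, rose. Without TKO_96h replicate 1 these were 4 and 0, and 8 and 1, and with the length offset 2 and 0, and 7 and 1. The call of Myc ended when any 1 of the 6 libraries but TKO_96h replicate 1 was left out (adjusted p up to 0.19). Fos was at 73.7, 51.0 and 44.6 CPM in TKO_40h and 5.89, 7.42 and 6.20 CPM in TKO_96h, 8.65-fold lower, and Fosb fell 21.3-fold. Jun, their partner in AP-1, fell 4.30-fold. Egr1, a target of ERK, fell from 287, 249 and 217 to 69.3, 86.4 and 77.5 CPM (-1.69 ± 0.15), but TKO_48h was lower again, at 28.1 to 44.0 CPM, and TKO_96h rose over it by 1.02 (adjusted p = 9.1e-05). Fosb did not differ from TKO_48h by the test (-0.71, adjusted p = 0.12). Dusp4, a phosphatase that ends ERK signals, fell 2.41-fold, and Fgfr2, an FGF receptor, 4.05-fold, the second not with the length offset (adjusted p = 0.058). These genes also answer handling, such as dissociation of aggregates. Handling was not recorded by group, and its part in the result was not tested.

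Epithelial genes fell more often than they rose, where 7.2% of all genes tested fell and 4.94% rose. Of 21 tested junction and simple keratin genes, 12 fell and 1 rose, with a median of -0.69, and 9 fell without TKO_96h replicate 1 or with the length offset. Krt8, a simple keratin, fell 10.8-fold, from 26.0, 26.9 and 21.9 to 2.11, 2.38 and 2.37 CPM (adjusted p = 5.9e-09). Cldn7, a tight junction claudin, fell 11.7-fold. Esrp1, an epithelial splicing factor, fell from 58.2, 57.3 and 53.3 to 12.7, 9.52 and 6.33 CPM, and Grhl2, an epithelial transcription factor, fell 2.68-fold to a level that overlapped the 25.9 to 36.5 CPM of TKO_48h. The one that rose was Krt42, the largest increase named, from 0.277, 1.06 and 0 to 11.5, 5.04 and 11.5 CPM.

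Of 29 matrix genes and receptors, 11 fell and 2 rose, where 7.2% of all genes tested fell and 4.94% rose. Thbs1, thrombospondin, fell 42.0-fold, from 27.4, 29.6 and 27.4 to 0, 1.54 and 0.40 CPM, with TKO_48h at 4.55 to 10.5 CPM. The basement membrane collagens Col4a1 and Col4a2 fell by 1.21 and 1.28 on the log2 scale and the laminin chains Lamb1 and Lama5 by 1.08 and 0.85, whereas Fn1 (-0.10), Lama1 (0.12) and Lamc1 (-0.06) did not pass the test. Vim (vimentin), an intermediate filament of mesenchymal and neural cells, rose from 86.8, 96.5 and 98.6 to 157, 170 and 230 CPM. Itga5, a fibronectin receptor, rose by 0.54, but not with the length offset (adjusted p = 0.54). Of 23 cholesterol genes 8 fell and none rose, and 3 fell with the length offset.

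Markers of other cell types were low and moved in different ways, where 4.94% of all genes tested rose and 7.2% fell. Among endoderm markers 6 of 19 fell and none rose, and the summed CPM were 165 to 214 in TKO_40h and 50.4 to 100 in TKO_96h. Apoa4, an apolipoprotein, was at 5.25, 13.3 and 0.349 CPM in TKO_40h and 0 in all of TKO_96h, at least 43.0-fold lower. That bound was 18.4 without TKO_40h replicate 2, which held 100 of its 141 counts, and 66.6 without replicate 3. Afp, alpha-fetoprotein, held 70 counts over TKO_40h and none over TKO_96h, at least 21.3-fold lower. These bounds use a floor of 3 counts over the group. Apob fell 6.95-fold, while Sox17, Gata6, Gata4 and Hnf4a did not pass the test (0.09, -0.57, -1.13 and -0.44). Of 16 mesoderm markers 3 fell, among them Eomes (-1.72), with sums of 60.6 to 82.8 CPM in TKO_40h and 38.9 to 43.5 CPM in TKO_96h, and Mixl1, Mesp1, Msgn1 and Lhx1 had too few counts to be tested. With the length offset 1 mesoderm marker fell.

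Neural markers were the lineage list that rose: 4 of 17 tested and none lower, with sums of 233 to 256 CPM in TKO_40h and 389 to 452 CPM in TKO_96h. Nes (nestin), an intermediate filament of progenitors, rose from 41.2, 61.8 and 44.8 to 91.0, 99.0 and 114 CPM, and Tubb3, a tubulin of neurons, from 14.8, 13.6 and 29.3 to 59.0, 44.9 and 49.9 CPM. Stmn2 rose 2.19-fold and Ncam1 2.06-fold. The defining neural factors Sox1 (0.02, 35.0 to 44.7 against 37.3 to 46.0 CPM) and Pax6 (0.29, adjusted p = 0.33) did not pass the test, and Neurog2, Olig2 and Sox10 had too few counts to be tested. Of 10 trophoblast markers 2 fell, and without TKO_96h replicate 1 none fell and 1 rose. Of 9 surface ectoderm markers 1 fell. The shares over all genes tested were 4.94% higher and 7.2% lower. Of 14 endothelial and blood markers none passed the edgeR test, 0 had an unadjusted p below 0.05 and 0 were called by DESeq2. The part of these cell types in the results above was not tested.

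Imprinted genes, which lose the silent mark of one allele without methylation, fell where they changed. Of 22 paternally expressed genes 7 fell and none rose, and of 12 maternally expressed genes 3 fell and none rose. The shares over all genes tested were 7.2% lower and 4.94% higher, and neither list was tested against them. Peg10, a retrotransposon-derived gene of the placenta, was at 3054, 3104 and 3191 CPM in TKO_40h and 369, 468 and 410 CPM in TKO_96h, 7.5-fold lower (-2.91 ± 0.13, adjusted p = 6.2e-12). TKO_48h lay between, at 1458 to 2098 CPM, and WT_40h at 1122 to 1350 CPM, so TKO_96h was below WT_40h too, by its values. Sgce, the neighbour of Peg10 that shares its imprinted promoter region, fell 4.66-fold from 29.4, 21.7 and 24.1 to 4.38, 5.32 and 6.33 CPM, and Ppp1r9a, on the other side of the same cluster, fell 2.43-fold. Peg3, a zinc finger gene, fell from 424, 402 and 310 to 136, 219 and 183 CPM, Snrpn by 0.81 and Mest by 0.69 on the log2 scale, the last not with the length offset (adjusted p = 0.069). Among maternally expressed genes Grb10, a growth inhibitor, fell 1.83-fold and Gnas 1.96-fold, and Cdkn1c was at 29.7, 24.6 and 36.5 against 20.1, 22.0 and 21.2 CPM (adjusted p = 0.2). Counts do not separate the alleles.

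In the methylation machinery 3 of 22 genes rose and 2 fell, and with the length offset 1 rose and 1 fell. Dnmt3l, the cofactor of the de novo enzymes, which is not among the targeted genes, fell from 465, 441 and 450 to 168, 178 and 157 CPM (-1.43 ± 0.12, adjusted p = 6.4e-08). The level in TKO_96h was still above the 132 to 154 CPM of WT_40h, by its values. Dnmt3b fell by 0.57 (adjusted p = 0.035), a call that ended with the length offset and without TKO_40h replicate 2 or 3 or TKO_96h replicate 1 or 2 (adjusted p up to 0.17). Uhrf1, which guides maintenance methylation, rose by 0.49, and not with the length offset (adjusted p = 0.22). Of 29 repressors of germline genes and heterochromatin 3 rose and 2 fell, against 1 and 1 without TKO_96h replicate 1. Beside this list and the methylation machinery, 4.94% of all genes tested rose and 7.2% fell. Neither list was tested against these shares. Cbx5, a heterochromatin protein, rose from 213, 218 and 208 to 302, 327 and 315 CPM (0.56 ± 0.09), while Mga (-0.28), Max (0.08), Pcgf6 (0.36), E2f6 (-0.72) and Setdb1 (-0.04) did not pass the test.

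Some of the largest differences were in genes not on the lists described above. Loxl2, a lysyl oxidase that crosslinks collagen, fell 23.4-fold, from 65.4, 73.0 and 63.9 to 4.23, 2.80 and 1.72 CPM (-4.55 ± 0.20, adjusted p = 4.8e-12). Aire, known for thymic expression of tissue antigens, fell 15.1-fold, from 82.5 CPM or more in every TKO_40h library to 3.77, 7.70 and 6.86 CPM. Ndufa4l2, a mitochondrial protein, fell 25.4-fold, from 16.4, 13.6 and 17.1 to 0, 0 and 1.72 CPM. Stc2 (stanniocalcin), a member of the integrated stress response list, fell 14.2-fold, and like Loxl2 and Ndufa4l2 it is also known to answer low oxygen. Slc40a1 (ferroportin), the iron exporter, fell 19.2-fold, and Car4, a carbonic anhydrase, 13.7-fold. Gem, a small GTPase, held 144 counts over TKO_40h and none over TKO_96h, at least 43.9-fold lower. All 7 also fell below TKO_48h.

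Increases of at least 2-fold were fewer. Irak3, an inhibitor of innate signalling, rose 6.38-fold, from 4.56, 3.99 and 5.47 to 30.9, 25.3 and 33.6 CPM (adjusted p = 2.1e-06), and Bcl3, a regulator of NF-kappaB, 5.06-fold, from 6.64, 6.11 and 6.05 to 28.4, 24.9 and 41.9 CPM. Mras, a Ras relative, rose from 0.415, 1.99 and 0.466 to 12.4, 10.1 and 14.5 CPM, and Esrrg, a nuclear receptor related to Esrrb, from 0.553, 0.133 and 0.698 to 14.3, 9.94 and 3.17 CPM, the second not with the length offset (adjusted p = 0.056). Lrrc34 rose 5.91-fold and Rpl39l, a testis copy of a ribosomal protein gene, 4.11-fold. Genes chosen after their values were seen were Tdh, threonine dehydrogenase of naive mouse stem cells, from 27.1, 28.2 and 22.2 to 80.2, 90.0 and 82.3 CPM, Ckb, brain creatine kinase (1.31 ± 0.11), and Cpt1a, which brings fatty acids into mitochondria (1.29 ± 0.16). Each of the 3 lay above all libraries of the other groups.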

How the data were processed

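RNA was sequenced in 12 PGCLC libraries, of which the 6 compared here are described above. Per the labels' protocols, DNase-treated total RNA went into a stranded total RNA kit for low input. The submitters' processing notes name Trim Galore 0.6.2, kallisto and the build GRCm38 (mm10), with no settings. The authors deposited estimated counts and TPM per transcript, and the TPM, scaled by the authors to length and depth, were used only to rank genes. Effective lengths, also deposited, served as an offset.

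Of 119414 transcripts, 116728 (97.8%) matched GENCODE M21 by Ensembl ID. Estimated counts were summed per gene (35975 genes) and rounded. Genes passed filterByExpr (minimum count 10, minimum total 15). edgeR 4.0.16 (TMM, quasi-likelihood, two-sided, all 12 libraries, 1 mean per group) gave log2 fold changes, SEs and Benjamini-Hochberg adjusted p over 16178 genes, 15113 of them protein coding, and a gene is called below 0.05. All adjusted p values in the text come from this test unless an alternative is named. CPM use TMM library sizes. In simulated counts the procedure recovered 74.5% of 200 genes changed 2-fold (15735 genes tested) and 97.5% of those changed 4-fold (15694 genes). Of the calls, 3.87% and 5.8% were false. The changed genes were drawn from those with a mean of 5 CPM or more, with as many increases as decreases. Recovery of genes below that level was therefore not measured. Counting error at this depth limits genes near 1 CPM, and copies of reads carry no molecular identifiers.

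The 33 lists (731 genes, 721 of them in the files) and the genes compared were chosen with earlier results of these data known. Named by rule were the 15 largest increases and 15 largest decreases (non-overlapping replicates, 5 CPM or more in the group where the gene was higher, predicted genes and pseudogenes left out), up to 6 called members per list or the 2 of highest CPM where none is called, the 10 called genes of highest TPM, and the 4 Dnmt genes. Some genes that the rule names are not reported here. Any other list member named was chosen after values were seen. Promoter windows come from RefSeq (32851 windows for 27025 genes, the first listed per gene). Alternatives were DESeq2 1.42.0, RLE factors, no filter, a replicate block, the length offset, a robust fit, the 6 libraries alone, protein-coding genes alone, each library left out and, chosen after seeing the data, TKO_48h replicate 1 left out. R 4.3.3, Python 3.11.15, pandas 2.3.3 and matplotlib 3.10.9 were used.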

Additional observations from a re-analysis of the deposited data

How the results depend on the processing

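The count of genes that differed between TKO_96h and TKO_40h, 1965, fell to 828 with the effective length offset, which kept 773 of the calls, and against TKO_48h the count went from 3157 to 1639; the cause was not tested. Leaving out 1 of the 6 libraries compared gave 1210 to 1676 genes against TKO_40h, lowest without TKO_40h replicate 3, and 2344 to 2991 against TKO_48h. RLE size factors, DESeq2, no filter, a robust fit, the 6 libraries alone, protein-coding genes alone and leaving out TKO_48h replicate 1 gave 1952 to 2302 genes against TKO_40h, within 1.5 times (2259 without TKO_48h replicate 1). Of 170 called genes named by the rule, none changed direction under any of these settings, 46 lost the call with the length offset, 17 to 26 without 1 of the 6 libraries, 9 in the robust fit, 5 with DESeq2, 2 without the filter and none with RLE.

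Same-numbered libraries did not deviate together, with correlations of -0.001 to 0.051 between TKO_40h and TKO_96h and -0.06 to 0.039 between TKO_48h and TKO_96h, so the numbers were not taken as a pairing. With the replicate block 2022 genes were called against TKO_40h and 3175 against TKO_48h, and 1 named gene lost its call. Depth limits genes near 1 CPM, such as Nanos3 and Car9.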

Other observations

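Where 4.94% of all genes tested rose and 7.2% fell, 8 of 32 tested cell cycle genes rose and 6 fell. Those that rose serve DNA replication and entry into S phase: Rrm2, a ribonucleotide reductase subunit, went from 145, 135 and 144 to 247, 230 and 218 CPM (0.71 ± 0.10), and Mcm2 (0.49), Mcm3 (0.35), Mcm5 (0.47), Pcna (0.43), Cdc6 (0.60), Ccne1 (0.45) and Cdk2 (0.45) rose less. Those that fell were Mki67 (-0.92 ± 0.11), Top2a (-0.72 ± 0.10), Bub1 (-0.78 ± 0.10), Ccnb1 (-0.54), Plk1 (-0.38), all of G2 and mitosis, and Ccnd2, a D-type cyclin, from 37.6, 39.5 and 39.7 to 3.62, 5.46 and 4.75 CPM. Without TKO_96h replicate 1 the counts were 5 and 5, and with the length offset 2 and 4; Ccnd2 lost its call with that offset (adjusted p = 0.76), and Plk1 lost it there and without any 1 of the 6 libraries (adjusted p up to 0.46). Many members of the same phases did not pass the test, among them Cdk1 (-0.14), Ccna2 (-0.16), Ccnb2 (-0.09) and Aurka (-0.40) of G2 and mitosis and Cdt1 (0.31), Ccne2 (0.36) and E2f1 (-0.03) of the entry into S phase.

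Mitochondrially encoded mRNAs rose in 8 of 13 cases and fell in none, with a median log2 fold change of 0.50. The shares over all genes tested were 4.94% higher and 7.2% lower. Summed CPM were 11960 to 13410 in TKO_40h and 14230 to 19500 in TKO_96h, and the highest value was replicate 1, in which the share of Lars2 and Ccnb1ip1 was also highest and that of annotated ribosomal RNA the lowest of its group (1.24% against 1.29% and 1.63%). With the length offset 4 rose. Without that library 4 rose as well, among them mt-Nd5, at 1540, 1444 and 1540 against 1927, 2043 and 2076 CPM.

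On the X chromosome 17 of 611 tested genes rose and 64 fell, with a median log2 fold change of -0.14, and on chromosome 17 the median was 0.09. Together 13.3% of X genes changed, against 12.1% of all genes tested, of which 4.94% rose and 7.2% fell. Of 8 Y-linked genes 3 fell, Usp9y (-2.59), Zfy1 (-2.16) and Uba1y (-1.30), while Ddx3y (0.18), Kdm5d (-0.11), Uty (-0.21) and Eif2s3y (-0.06) did not pass the test. The call of Zfy1 ended with the length offset, in the fit of the 6 libraries alone and without TKO_40h replicate 3 or TKO_96h replicate 2 or 3 (adjusted p up to 0.074).

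Of 16 genes of the 2-cell-like state 5 fell and none rose, with a median of -1.60. Zscan4c was at 24.1, 23.5 and 21.6 CPM in TKO_40h, 2.27, 8.26 and 5.01 CPM in TKO_96h and 1.56 to 8.07 CPM in TKO_48h. Members of the Zscan4 and Usp17l families are near-identical copies, so reads may be split between them. Of 24 interferon and MHC genes 3 fell, Irf1 (-1.45), H2-K1 (-1.28) and Bst2 (-1.23), the last not in several alternatives (adjusted p up to 0.074). The share that fell over all genes tested was 7.2%. Of 18 Hox genes and 17 X-linked Rhox and Xlr genes none passed the edgeR test, with medians of -0.70 and 0.12. At an unadjusted p below 0.05 there were 4 and 3, and DESeq2 called 2 and 1.

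Of 23 p53 targets 2 rose, Rrm2b (1.34) and Sesn1 (0.67), and neither did without TKO_96h replicate 1 or with the length offset. Among all genes tested, 4.94% rose and 7.2% fell. Of 20 genes of the integrated stress response 4 fell and none rose, among them Stc2, a secreted glycoprotein, from 23.4, 27.4 and 35.7 to 2.11, 1.68 and 2.24 CPM. Atf5 fell by 0.60, and its call ended in many alternatives (adjusted p up to 0.16). Atf4 (-0.28), Ddit3 (-0.86), Trib3 (-0.06), Chac1 (-0.53) and Asns (-0.37), of the same list, did not pass the test.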
